A study of Homo sapiens with 4 samples.

Results

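The genomic regions bound by c-MYC under AMG510 were compared directly with those bound under trametinib, with no use of the solvent control to define which regions entered. The members were all regions that the authors called as peaks in the c-MYC library of each drug, 10378 for AMG510 and 5431 for trametinib, out of 28327 peaks in the 4 peak lists of the series. A pair of peaks was matched where they overlapped by at least 1 bp. A gene was assigned to a peak where the summit, the base with the deepest pile of fragments, lay at most 1 kb from a transcription start site (TSS) where one of its protein-coding transcripts begins, and such a peak is called a promoter peak.

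The cells were MIA PaCa-2, an established human line of pancreatic ductal adenocarcinoma (PDAC), and c-MYC binding was read by ChIP-seq, in which DNA pulled down with an antibody is sequenced. They received DMSO, AMG510 at 100 nM or trametinib at 10 nM, each for 8 h. Trametinib inhibits the kinase MEK, and what AMG510 inhibits is not reported here. Each drug had 1 c-MYC library, and the DMSO cells had 1 c-MYC library and 1 library with non-specific immunoglobulin (IgG) as background. The doses of the drugs differed, and with 1 library each a drug, its dose and its library cannot be told apart. Every difference below is therefore between 2 libraries, with no replicate check, and intervals are 95% intervals that cover counting error only.

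c-MYC pairs with its partner MAX to bind DNA, with a preference for the E-box CACGTG, and it is found mostly at active, CpG-rich promoters. Its known targets include genes for ribosomal proteins, ribosome assembly, nucleotide synthesis, glycolysis and RNA splicing. Kinase signalling through MEK and ERK is known to stabilise the c-MYC protein, and MXD proteins compete with c-MYC for MAX.

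Examples of strong promoters bound under both drugs are shown first, picked because they carry an E-box near the summits of both lists. Other promoters of that strength, such as those of RPL5, PRRC2B and RPL35, held none within 100 bp of the summits, and among the 100 strongest promoter peaks 33% under AMG510 and 40% under trametinib held one. Each sequence is the plus strand of GRCh38, spans the summits with 25 bases on either side, and was widened where an E-box lay within 110 bp of a summit. Capitals mark CACGTG and the non-canonical form CACGCG, the latter on either strand. The windows lie at chr5:171388530-171388593 in intron 1 of NPM1 (nucleophosmin, a nucleolar chaperone of ribosome assembly), chr5:82278155-82278211 in intron 1 of RPS23 (a protein of the small ribosomal subunit), chr10:5813738-5813849 upstream of GDI2 (a regulator of RAB GTPases) and chr19:1864259-1864373 upstream of KLF16 (a zinc-finger transcription factor). NPM1 held 2 E-boxes, and the nearest lay 8 bp from a summit, against 7 bp in RPS23, 19 bp in GDI2 and 56 bp in KLF16.
NPM1: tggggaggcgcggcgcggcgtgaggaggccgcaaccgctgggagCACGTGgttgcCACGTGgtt
RPS23: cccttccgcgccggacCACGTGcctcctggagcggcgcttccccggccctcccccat
GDI2: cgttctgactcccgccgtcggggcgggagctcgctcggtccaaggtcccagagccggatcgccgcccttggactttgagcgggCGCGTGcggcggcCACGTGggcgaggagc
KLF16: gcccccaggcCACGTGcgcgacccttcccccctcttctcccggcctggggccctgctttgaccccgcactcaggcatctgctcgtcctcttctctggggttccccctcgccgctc

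The next windows belong to strong promoters found in 1 list alone. All but that of DDX5 were picked because they hold an E-box, and DDX5 is shown as a strong one without it. Others of that strength without a CACGTG, such as PGK1, TPRA1, RTTN, NFE2L1, AKAP8 and RPS15A, are not printed. From the AMG510 list they are chr2:169799107-169799220 in intron 1 of SSB (the La protein, which binds new RNA polymerase III transcripts), chr19:48446022-48446123 over the coding part of exon 1 of GRWD1 (a histone-binding protein linked to ribosome assembly) and chr15:101252050-101252180 upstream of CHSY1 (an enzyme of chondroitin synthesis). From the trametinib list they are chr17:14069634-14069715 in intron 1 of COX10 (an enzyme of haem A synthesis for cytochrome oxidase), chrX:48574747-48574859 in intron 1 of RBM3 (a cold-induced RNA-binding protein) and chr17:64505609-64505659 in intron 1 of DDX5 (an RNA helicase). The E-box lay 75, 64 and 93 bp from the AMG510 summits and 43 and 74 bp from those of COX10 and RBM3, and the DDX5 window held none.
SSB: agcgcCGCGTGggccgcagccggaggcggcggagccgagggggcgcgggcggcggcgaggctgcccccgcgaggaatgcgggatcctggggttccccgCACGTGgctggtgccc
GRWD1: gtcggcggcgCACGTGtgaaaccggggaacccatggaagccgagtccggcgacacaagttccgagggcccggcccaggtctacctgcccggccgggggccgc
CHSY1: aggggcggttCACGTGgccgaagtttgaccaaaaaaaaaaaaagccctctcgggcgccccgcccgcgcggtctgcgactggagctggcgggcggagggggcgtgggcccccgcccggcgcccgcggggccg
COX10: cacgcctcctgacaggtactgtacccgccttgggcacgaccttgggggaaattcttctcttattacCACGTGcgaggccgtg
RBM3: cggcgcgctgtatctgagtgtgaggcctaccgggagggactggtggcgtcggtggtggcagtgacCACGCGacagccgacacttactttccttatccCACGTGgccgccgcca
DDX5: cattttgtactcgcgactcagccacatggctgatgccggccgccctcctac

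More c-MYC peaks were listed under AMG510 than under trametinib, and the excess lay among weak peaks. The log2 ratio of the peak numbers, AMG510 to trametinib, was 0.93 (0.89 to 0.98). The strength of a peak is given in tags, the number of read positions piled up at its summit, which could be recovered as a whole number for 100% of the peaks. The median peak held 11 tags under AMG510 and 12 under trametinib. Peaks of at most 9 tags numbered 2716 under AMG510 and 502 under trametinib, and those of 10 to 14 tags 6073 and 3364. Peaks of 15 or more tags numbered 1589 and 1565, a log2 ratio of 0.02 (-0.08 to 0.12). At promoters, peaks of that strength numbered 1022 and 1031, and those of 30 or more tags 59 and 81 (log2 ratio -0.46, -0.97 to 0.04). By an estimate from the peak values, both libraries had similar depth, with 24300000 tags in calling for AMG510 and 24800000 for trametinib. In the read counts that the paper reports, raw and uniquely mapped, AMG510 had more reads than trametinib. The part of depth in the peak numbers was not tested. At the genome-wide background 7 tags were enough for a call under AMG510 and 8 under trametinib, and the part of this difference in the peak numbers was not tested.

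The excess was larger away from promoters than at them. Promoter peaks numbered 2806 under AMG510 and 2124 under trametinib (log2 ratio 0.40, 0.32 to 0.48). Inside protein-coding genes, away from any annotated start, there were 3018 and 1243 peaks (1.28, 1.18 to 1.38). Between genes there were 3991 and 1728 (1.21, 1.13 to 1.29), and near starts of other transcripts 563 and 336 (0.74, 0.55 to 0.94). Promoters therefore took 27.0% of the AMG510 list and 39.1% of the trametinib list, a difference of -12.1 percentage points (-13.6 to -10.5). With the 5431 strongest peaks of each list, ranked by the authors' -log10 p-value, the shares were 35.8% and 39.1%, a difference of -3.28 points (-5.09 to -1.46). Among the top 1000 of each they were 58.8% and 61.7% (-2.90 points, -7.17 to 1.39), which was not distinguishable at this number of peaks.

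**Figure D1:**
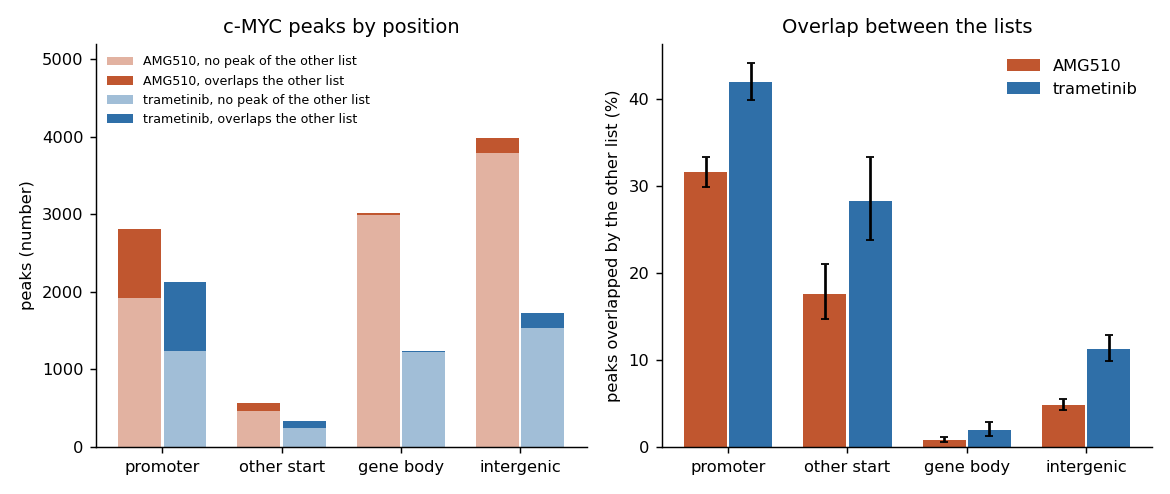
Left, number of c-MYC peaks by position for AMG510 (orange) and trametinib (blue), with the dark part overlapped by a peak of the other list; right, that part in % with 95% Wilson intervals (1 library each). Overlap reached 31.5% and 41.9% at promoters and stayed below 2% in gene bodies.

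Most peaks of either list had no counterpart in the other. Of the AMG510 peaks, 1200 of 10378 were overlapped by a trametinib peak (11.6%, 10.96 to 12.2), and of the trametinib peaks 1204 of 5431 by an AMG510 peak (22.2%, 21.1 to 23.3). Promoter peaks made up 73.8% of the matched AMG510 peaks and 20.9% of the unmatched ones, and 74.0% and 29.2% in the trametinib list. At promoters 885 of 2806 AMG510 peaks were matched (31.5%) and 891 of 2124 trametinib peaks (41.9%). In gene bodies the matched share was 0.762% (23 of 3018) and 1.93% (24 of 1243), and between genes 4.84% and 11.2%.

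A share of the matched peaks outside promoters overlapped peaks of the IgG library, 47.0% in the AMG510 list and 47.6% in the trametinib list. Among matched promoter peaks it was 0.113% and 0.112%. Without peaks over IgG, 2.27% of AMG510 and 5.24% of trametinib peaks outside promoters were matched. Over the whole lists IgG peaks touched 207 AMG510 peaks (1.99%) and 184 trametinib peaks (3.39%).

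Strong peaks were shared far more often than weak ones. In the strongest 10% of each list 55.0% of AMG510 peaks and 80.9% of trametinib peaks were matched, and in the weakest 10% 1.54% and 4.604%. Of the 100 strongest peaks, 99% under AMG510 and 100% under trametinib were matched somewhere in the other whole list, though 65% and 54% of them overlapped an IgG peak. Between equal top lists, the matched share of AMG510 peaks was 72% at 100 peaks, 51.8% at 500, 39.6% at 1000 and 18.7% at 5431, and the trametinib shares differed from these by at most 1 percentage point. Without peaks over IgG, the match between the top 100 was 54% in both directions, and between the top 1000 it was 32.4%. Of those 100 peaks, 82% under AMG510 and 87% under trametinib lay at promoters.

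**Figure D2:**
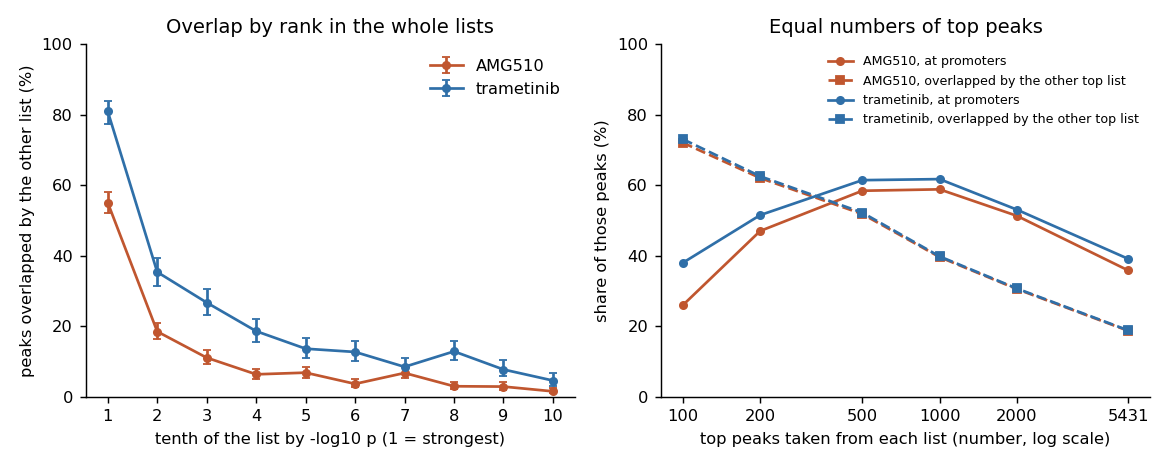
Left, matched share (%) in successive steps of 10% of the AMG510 (orange) and trametinib (blue) list, strongest first, with 95% Wilson intervals; right, share at promoters (circles) and share overlapped by the other top list (squares, dashed) against the number of top peaks on a log axis. Matched shares are highest among the strongest peaks of both lists. The dashed curves lie on each other from 72% and 73% at 100 peaks to 18.7% and 18.8% at 5431. The share at promoters rises from 26% (AMG510) and 38% (trametinib) at 100 peaks to 58.8% and 61.7% at 1000. At 5431 peaks it is 35.8% and 39.1%.

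Matched and unmatched peaks differed in strength and base composition in the same way in both lists. Matched peaks held a median of 17 tags in each list and a median GC content of 70.1% within 100 bp of the summit. Unmatched peaks held 11 and 12 tags with a GC content of 48.8% and 49.8%. Unmatched promoter peaks held 12 tags under AMG510 and 13 under trametinib, with a GC content of 71.6% and 70.6%, against 16 and 17 tags in matched promoter peaks. Few of the unmatched promoter peaks had a nearby summit in the other list, 10.7% under AMG510 and 15.4% under trametinib within 1 kb. Outside promoters the shares were 1.16% and 2.51%.

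The DMSO c-MYC library, which played no part in the matching, held a peak over 84.4% of the matched AMG510 peaks and 84.6% of the matched trametinib peaks. Over unmatched promoter peaks the shares were 41.0% (38.8 to 43.2) for AMG510 and 42.7% (40.0 to 45.5) for trametinib. Over unmatched peaks elsewhere they were 2.55% and 3.94%.

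The canonical E-box CACGTG stood no more than 100 bp from the summit in 6.18% of AMG510 peaks and 9.15% of trametinib peaks, a difference of -2.97 points (-3.89 to -2.09). At equal numbers of peaks the difference was -0.46 points (-1.53 to 0.61). Matched promoter peaks held it in 23.7% of the AMG510 list and 25.1% of the trametinib list. Unmatched promoter peaks held it in 10.1% and 11.7%, a difference of -1.58 points (-3.88 to 0.62). The same window around all canonical TSS held it in 5.67%, and windows 1 kb from the summits of matched promoter peaks in 2.82% and 3.25%. Unmatched peaks outside promoters held it in 2.73% and 3.11%, against 2.05% and 1.80% at 1 kb.

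The other motifs searched on both strands did not set the unmatched promoter peaks of the lists apart at this depth. The non-canonical E-box CACGCG was in 17.9% and 17.8% of them (difference 0.01 points, -2.77 to 2.71), against 28.0% and 28.3% of matched promoter peaks and 10.7% of all canonical TSS windows. The ETS motif CCGGAAG was in 6.45% and 6.002% (11.3% of all TSS windows), and the GC box GGGCGG, the site of SP1-type factors, in 56.6% and 57.1% (53.7%). The CCAAT box CCAAT was in 9.42% and 10.9% (25.3%). The AP-1 motif TGANTCA, bound by FOS and JUN proteins, was in 1.51% and 2.19% (3.07%). A match to these letters is a description of the sequence and says nothing of which factor was bound.

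At promoters where the lists overlapped, the drugs gave similar numbers of tags. The 885 AMG510 promoter peaks with their trametinib partners held a median of 16 and 17 tags, and the median log2 ratio of tags, AMG510 to trametinib, was -0.09, with quartiles of -0.38 and 0.21. On the scale of fold enrichment, the authors' ratio of the pileup to its background, the median log2 ratio was 0.00, with quartiles of -0.26 and 0.23. The summits lay a median of 67 bp apart, and 64.2% of the pairs were within 100 bp. An E-box stood in the windows of both lists in 160 pairs (18.1%, 15.7 to 20.8). All of these are pairs called in both lists, so a promoter with tags in 1 library and no call is not among them.

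**Figure D3:**
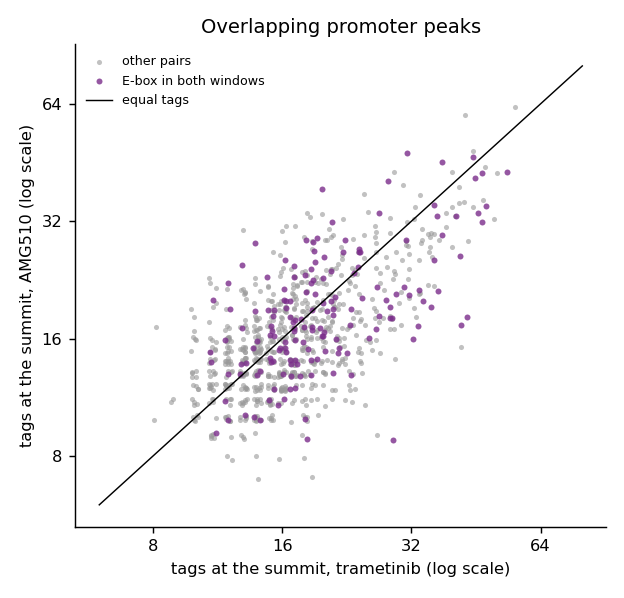
Tags at the summit under trametinib (x axis) and AMG510 (y axis), both on log2 scales, for the 885 pairs of overlapping promoter peaks, with a small random shift so that points do not hide each other. Purple points have an E-box in both windows, the line marks equal tags, and most pairs lie near it.

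Of the 885 pairs, 5 had exact Poisson intervals of the tags that did not overlap, and trametinib was higher in all 5. How many such pairs counting error alone would give among 885 was not tested. The 5 pairs were named after their values were seen. HK2, the hexokinase that starts glycolysis in many tumour cells, had 9 tags (4.12 to 17.1) under AMG510 and 29 (19.4 to 41.6) under trametinib, a log2 ratio of -1.69. SLC7A6, an amino acid transporter, had 9 and 27 tags (-1.58). CYB561, an electron-transfer cytochrome of vesicle membranes, had 15 and 41 (-1.45), and PLD6, a mitochondrial phospholipase, had 17 and 41 (-1.27). RPSA, a protein of the small ribosomal subunit, had 18 (10.7 to 28.4) and 43 (31.1 to 57.9), a log2 ratio of -1.26. On the fold enrichment scale the log2 ratios of these 5 ran from -1.17 in PLD6 to -0.80 in RPSA. No pair had an AMG510 interval above the trametinib interval. The highest AMG510 ratio was that of AGPAT5, an acyltransferase of phosphatidic acid synthesis, with 30 tags (20.2 to 42.8) and 13 (6.92 to 22.2), a log2 ratio of 1.21.

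At the level of genes, AMG510 had a promoter peak at 3010 of 19689 protein-coding genes (15.3%) and trametinib at 2326 (11.8%). Both lists had one at 1237 genes (6.28%), AMG510 alone at 1773 (9.01%) and trametinib alone at 1089 (5.53%). These shares are the background for the gene groups below. Thus 53.2% (51.2 to 55.2) of the trametinib genes were also AMG510 genes, and 41.1% (39.4 to 42.9) of the AMG510 genes were also trametinib genes. The peaks of both lists overlapped at 81.7% of the shared genes. Some peaks lay near several genes, 13.0% of AMG510 and 14.4% of trametinib promoter peaks, and such genes share their tags.

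Strong promoter peaks were shared at the level of genes as well. The 100 strongest AMG510 promoter peaks lay at 122 genes, of which 120 (98.4%) were among the trametinib genes, and the 100 strongest trametinib promoter peaks at 119 genes, all of them AMG510 genes. With the 1000 strongest promoter peaks the shares were 60.3% of 1135 genes and 65.6% of 1145. The weakest peaks entering at that point had 13 tags in each list.

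Genes of 1 list alone looked alike between the drugs. Their peaks held a median of 12 tags under AMG510 and 13 under trametinib, with an E-box in 9.87% and 11.4%. DMSO had a promoter peak at 53.3% (51.0 to 55.6) of the genes of AMG510 alone and 53.1% (50.1 to 56.0) of those of trametinib alone, against 89.0% of the shared genes. The summits lay a median of 63 and 72 bp downstream of the nearest TSS of the gene, against 61 and 59 bp at shared genes.

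**Figure D4:**
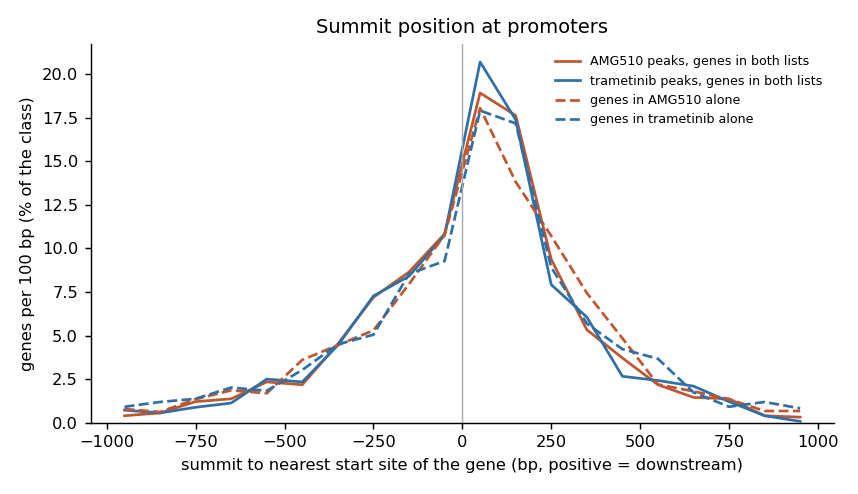
Share of genes (%) per 100 bp of distance from the summit to the nearest TSS of the gene, positive downstream, for genes in both lists (solid, AMG510 orange, trametinib blue) and in 1 list alone (dashed). All 4 curves peak within the first 100 bp downstream of the TSS.

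The 10 strongest shared genes held 3 genes of ribosomal proteins, RPL5, RPL35 and RPS23, and the others had various roles. RPL5 (ENSG00000122406), of the large ribosomal subunit, had its AMG510 peak at chr1:92832027-92832522 and its trametinib peak at chr1:92832025-92832438, both with the summit in intron 1. It held 64 tags (49.3 to 81.7) under AMG510 and 55 (41.4 to 71.6) under trametinib, so the intervals overlapped. NPM1, with the paired E-boxes printed above, had 42 and 53 tags, and its summits lay 13 bp apart. RPS23 had 47 and 45 tags with summits 6 bp apart. GDI2 had 34 and 45 tags, KLF16 41 and 45, and PRRC2B, a protein linked to translation initiation, 43 and 51. RPL35 and ARPC5L shared a single promoter peak of 44 and 47 tags, as SNX5 and MGME1 did with 43 and 47.

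The strongest genes of AMG510 alone held fewer tags than these. SSB led with 27 tags, and the nearest trametinib summit was 34552 bp away. RPLP0, a protein of the ribosomal stalk, had 25 tags, GRWD1 24 and CHSY1 19. The peak of PGK1, the phosphoglycerate kinase of glycolysis, had 22 tags and overlapped an IgG peak. TPRA1 had 26 tags, ENKUR 21, and the divergent genes CCDC40 and TBC1D16 shared a peak of 24. ENSG00000288625 had 19 tags, and a trametinib summit lay 981 bp from its AMG510 summit.

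Those of trametinib alone were of similar strength. DDX5 had 27 tags, PRELID3A, a mitochondrial lipid-transfer protein, 26, and AKAP8, a nuclear anchor of protein kinase A, 25. COX10, RTTN, NFE2L1 and RPS15A had 23 each. NFE2L1 is the transcription factor that induces proteasome genes, and RPS15A is a protein of the small ribosomal subunit. RBM3 had 22, and ATAD3A, a mitochondrial membrane ATPase, and TRPC4AP had 21 each. The nearest AMG510 summits lay between 29558 bp (NFE2L1) and 141422 bp (RPS15A) away.

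Cytosolic ribosomal protein genes were the groups most often bound under both drugs. Of 47 genes of the large subunit, 36 had a promoter peak in both lists, 8 in AMG510 alone and 1, RPL10, in trametinib alone. Of 32 genes of the small subunit the numbers were 21, 3 and 3. In percent, both lists covered 76.6% and 65.6% of these groups, against 6.28% of all protein-coding genes. At the 36 shared genes of the large subunit the median was 26 tags under each drug, from 12 to 64 under AMG510 and from 13 to 55 under trametinib, and the median log2 ratio was -0.12. Among the AMG510-only genes, RPL13A had 22 tags and RPL41 15, and RPL34 had 10. RPL10 had 11 tags under trametinib. RPS15A and RPS26 were bound under trametinib alone with 23 and 17 tags, and RPS13 under AMG510 alone with 18.

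Mitochondrial ribosomal protein genes, which make the ribosome inside mitochondria, were shared least of the groups counted, as a share of the genes in either list. As a share of the whole group, 2.60% were in both lists, close to the 2.63% of ERK feedback and output genes. Few of these peaks were strong, with 2 genes under AMG510 and 3 under trametinib among the top 1000 peaks. Of 77 genes AMG510 had 21 and trametinib 11, but only MRPL3 and MRPS5 were in both, which is 6.67% of the 30 genes in either list, against 30.2% for all genes. MRPL3 was strong in both, with 46 tags under AMG510 and 38 under trametinib and an E-box beside each summit. MRPS5 had 11 and 13. MRPL24 had the strongest AMG510-only peak of the group with 24 tags, and MRPL42 the strongest trametinib-only peak with 19.

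Genes of ribosome assembly and of translation were shared at an intermediate level. Of 79 ribosome biogenesis genes 24 were in both lists (30.4%, against 6.28% of all genes), 16 in AMG510 alone and 3 in trametinib alone. NCL, nucleolin, had 35 and 36 tags, and BOP1, of the PeBoW complex of large-subunit assembly, 22 and 27. WDR43, of the small-subunit processome, had 18 and 28 tags, and BYSL, also of small-subunit assembly, 24 and 19. PES1, another member of PeBoW, was in AMG510 alone with 16 tags, as were the RNA methyltransferase NOP2 with 19 and the box C/D protein NOP58 with 15, all 3 with an E-box. DDX56 and SURF6 were in trametinib alone with 17 tags each. Among 52 translation factors 19 were in both lists (36.5%), 7 in AMG510 alone and 5 in trametinib alone. EIF4G1, the scaffold of the cap-binding complex, had 48 and 45 tags, EIF5A 39 and 42, and EEF2 42 and 29.

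Splicing factors and chaperones were also shared well above the 6.28% of all genes. Of 52 splicing genes 23 were in both lists (44.2%), and the median was 17 tags under AMG510 and 22 under trametinib. SRSF6, an SR protein, had 28 and 44 tags, HNRNPK 27 and 39, and SF3B3, of the U2 particle, 34 and 39. Of 13 genes of the CCT chaperonin and related chaperones 7 were in both lists (53.8%). CCT5 had 29 and 35 tags, and HSP90AB1 19 (11.4 to 29.7) and 35 (24.4 to 48.7). HSPE1, the co-chaperonin of mitochondria, had 27 and 14, at summits 801 bp apart that did not overlap.

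**Figure D5:**
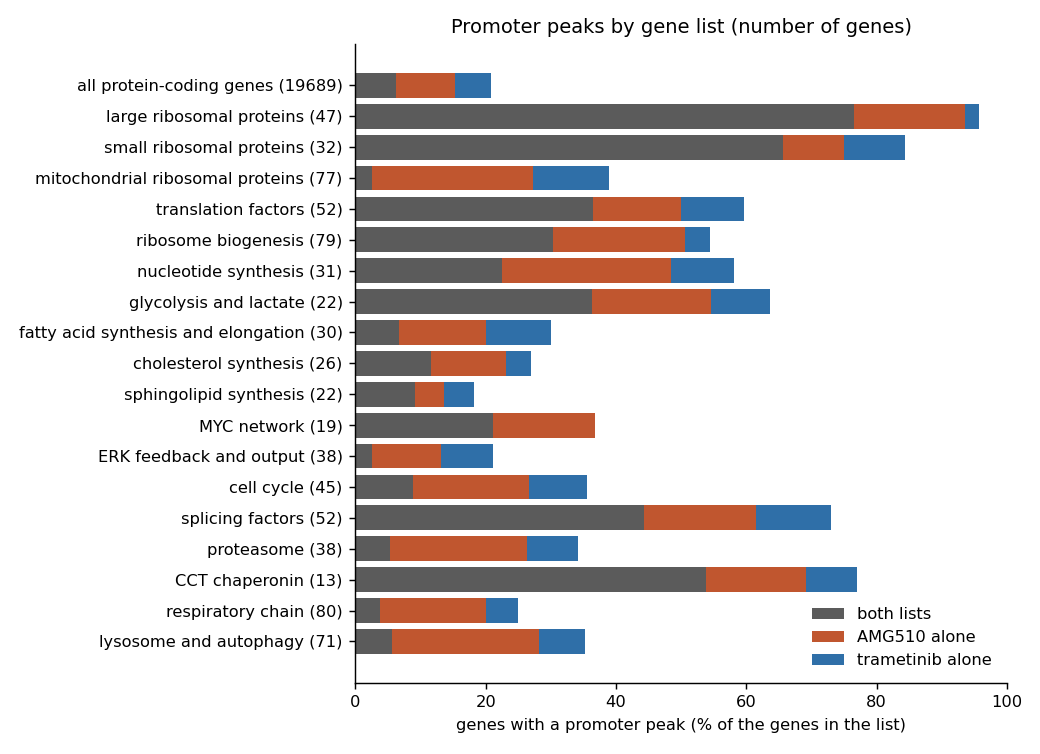
Share of the genes of each group (%) with a promoter peak in both lists (grey), in AMG510 alone (orange) or in trametinib alone (blue), with the number of genes in brackets. Ribosomal protein genes reach 76.6% and 65.6% in both lists, and mitochondrial ribosomal protein genes 2.60%.

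In nucleotide synthesis 7 of 31 genes were in both lists (22.6%, against 6.28% of all genes). Another 8 were in AMG510 alone and 3 in trametinib alone. The shared ones were the CTP synthase CTPS1 (29 and 21 tags), the folate enzyme MTHFD2 (23 and 31), the kinases NME1 (22 and 22, at summits 271 bp apart) and NME2 (24 and 24), IMPDH1, and the divergent purine genes PAICS and PPAT, which shared a peak of 19 and 20 tags with an E-box. ATIC, of purine synthesis, was in AMG510 alone with 20 tags, and GART, also of purine synthesis, in trametinib alone with 19. CAD, the first enzyme of pyrimidine synthesis, had 11 tags under trametinib and no AMG510 promoter peak.

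In glycolysis 8 of 22 genes were in both lists (36.4%, against 6.28% of all genes), or 5 at equal numbers of peaks. With fold enrichment above 5 the number was 0, while over all genes it fell from 1237 to 417. The 8 genes differed in which drug had more tags. HK2 was higher under trametinib, as given above, and ENO1, enolase, had 20 tags under AMG510 and 30 under trametinib. SLC2A1, the glucose transporter GLUT1, had 26 and 16 tags, and LDHA, lactate dehydrogenase, 14 and 11. The intervals of ENO1, SLC2A1 and LDHA overlapped. At GAPDH the nearest summits of the lists lay 909 bp apart, and at TPI1 506 bp, so these genes were shared without a common site.

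Genes of fatty acid synthesis and elongation, a pathway that the study followed, were bound at shares not far from those of all genes. Of these 30 genes AMG510 had 6 (20.0%) and trametinib 5 (16.7%), against 15.3% and 11.8% of all genes. Both lists had ACACA, the acetyl-CoA carboxylase that makes malonyl-CoA, with 19 tags (11.4 to 29.7) under AMG510 and 18 (10.7 to 28.4) under trametinib and summits 7 bp apart. Both also had MCAT, of mitochondrial fatty acid synthesis, with 14 tags each. AMG510 alone had ME1 (12 tags), HACD2 (15), ACLY (11), the ATP citrate lyase that makes cytosolic acetyl-CoA, and ELOVL1 (12). Trametinib alone had FASN (20), the fatty acid synthase, with ELOVL7 (14) and TECR (15), both of chain elongation.

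The FASN call rested on the definition of a promoter. The trametinib peak at chr17:82099030-82099349 had its summit 1038 bp before the canonical TSS. The closest start of any protein-coding transcript was 980 bp away, so the peak only just met the limit of 1 kb, and it is not a promoter peak with a limit of 500 bp. An AMG510 peak of 11 tags (5.49 to 19.7) stood at chr17:82085038-82085194, 13132 bp downstream of the canonical TSS. It lay 556 bp from the start of another FASN transcript that does not code for the protein, so AMG510 also had a FASN promoter peak when the start of any transcript counted. TECR gained an AMG510 peak of 16 tags in the same way. The windows of the trametinib FASN peak at chr17:82099156-82099299, with an E-box 106 bp from the summit, and of both ACACA peaks at chr17:37406984-37407041, with none, are shown to set these lipid genes beside the strong promoters above. The FASN E-box lay beyond the limit of 100 bp, so in the counts above this peak has none.
FASN: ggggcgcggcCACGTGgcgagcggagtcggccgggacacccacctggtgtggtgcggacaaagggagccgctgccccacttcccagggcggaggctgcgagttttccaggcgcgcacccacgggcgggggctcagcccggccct
ACACA: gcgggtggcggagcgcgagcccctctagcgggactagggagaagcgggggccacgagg

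In cholesterol synthesis and its control, AMG510 had 6 of 26 genes (23.1%) and trametinib 4 (15.4%), against 15.3% and 11.8% of all genes. Both lists had 3 of them (11.5%, against 6.28% of all genes). With fold enrichment above 5 the number in both lists was 0, while over all genes it fell from 1237 to 417. AMG510 had more tags at each of the 3 shared genes. LSS, lanosterol synthase, had 29 tags (19.4 to 41.6) and 18 (10.7 to 28.4), SREBF1, the lipid regulator, 20 and 16, and INSIG1, which retains it in the endoplasmic reticulum, 14 and 13. All 3 pairs of intervals overlapped. CYP51A1, EBP and PMVK were in AMG510 alone with 16, 14 and 15 tags, and SQLE, squalene epoxidase, in trametinib alone with 10. In sphingolipid synthesis each drug had 3 of 22 genes (13.6%), and 2 were in both lists (9.09%), or 0 with fold enrichment above 5. The 2 shared genes were KDSR (20 and 14 tags, at summits 342 bp apart) and CERS4 (17 and 12).

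Genes of the MYC network were bound at larger shares than all genes, and those of ERK output at similar ones. The shares of all genes were 15.3% under AMG510 and 11.8% under trametinib. Both groups are small, and whether they differ from all genes was not tested. AMG510 had 7 of 19 network genes (36.8%) and trametinib 4 (21.1%), and these 4 were in both lists. They were the MAX partners MXD1 (20 and 21 tags) and MXD3 (20 and 19), the ATPase RUVBL1 (16 and 20) and the chromatin cofactor WDR5 (14 and 15). MXI1, ZBTB17 and MGA were in AMG510 alone, and no network gene was in trametinib alone. With fold enrichment above 5 the number of network genes in both lists was 2, while over all genes it fell from 1237 to 417. Of 38 genes of ERK feedback and output AMG510 had 5 (13.2%) and trametinib 4 (10.5%). DUSP2, a phosphatase of ERK, was in both lists with 20 and 28 tags. DUSP1, HBEGF, ELK1 and SPRY4 were in AMG510 alone, with 9 to 15 tags, and SPRED1, SPRED2 and FOSL1 in trametinib alone, with 13 to 15.

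In the remaining groups AMG510 had more genes than trametinib, as it had over all protein-coding genes (3010 and 2326, or 15.3% and 11.8%). With the 5431 strongest AMG510 peaks, the numbers over all genes were 2133 and 2326, and AMG510 then had fewer genes in the lysosome and autophagy group and still more in the respiratory chain, proteasome and cell cycle groups. These differences are of 2 to 4 genes, and whether they differ from that over all genes was not tested. Of 71 lysosome and autophagy genes AMG510 had 20 (28.2%) and trametinib 9 (12.7%), and within the 5431 strongest AMG510 peaks AMG510 had 7. BECN1, a regulator of autophagy, and PSME3, a proteasome activator, shared a peak of 29 and 31 tags. TFEB, the transcription factor of lysosome genes, had 11 tags under each drug. Of 80 respiratory chain genes AMG510 had 16 (20.0%) and trametinib 7 (8.75%), or 11 and 7 at equal numbers of peaks. NDUFS1 had 20 tags under each drug. Of 38 proteasome genes AMG510 had 10 (26.3%) and trametinib 5 (13.2%), or 9 and 5 at equal numbers. Of 45 cell cycle genes AMG510 had 12 (26.7%) and trametinib 8 (17.8%), or 10 and 8 at equal numbers. The replication helicase gene MCM7 had 29 and 34 tags, whereas PLK1 was in AMG510 alone with 16 and AURKB in trametinib alone with 17.

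Outside promoters, the 5 strongest matched peaks of each list lay on unplaced contigs or on chromosome 13, and all of them overlapped IgG peaks. Among matched peaks without IgG overlap the strongest was at chr7:4641881-4642279 under AMG510, at an annotated non-coding start, 40238 bp from FOXK1, with 78 tags under AMG510, 75 under trametinib and an E-box. The next, 7432 bp from MYO1G under AMG510, had 59 and 69 tags and also an E-box. Among unmatched peaks without IgG overlap on assembled chromosomes, the highest ranked under AMG510 had 29 tags, 11920 bp from CBX8, and the highest ranked under trametinib 39 tags, inside CROCC. CROCC has near-identical copies in the genome, so its reads are uncertain.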

How the data were processed

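Peak lists of 2 drug-treated c-MYC libraries (1 per drug) were analysed, with the DMSO c-MYC and IgG lists for description. According to their methods and the submitters' processing notes, the authors used Trimmomatic 0.39 for trimming and BWA 0.7.17 for alignment to GRCh38, kept mapping qualities of at least 20 with SAMtools 1.9, removed duplicates with Picard, converted alignments with bedtools 2.27.1, called peaks per library with MACS2 2.2.7.1 (q-value limit 0.05) and removed peaks of an exclusion list. Use of the IgG library in calling is not given in the sources used here. The lists as deposited by the authors hold a score (10 times the -log10 q-value, without its decimals), a fold enrichment (a ratio of pileup to background), a -log10 p-value and a -log10 q-value for each peak, besides positions. Both mates of a fragment may count as tags, so a pileup can hold fewer fragments than tags, and counting intervals are then too narrow.

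Tags at the summit and depth in calling were recovered from the deposited fold and -log10 p-value, with a genome size of 2700000000 bp. The recovery was tried on data simulated with the same formula, which checks the calculation and not whether the deposited values follow that formula. Genes came from GENCODE version 44, and coordinates are 1-based. Positions in introns and exons refer to the canonical transcript. Intervals are Wilson for shares, Newcombe for differences of shares, exact conditional binomial for log2 ratios of peak numbers and exact Poisson for tags. For the median tag ratio, the interval was taken from the ranked ratios of the pairs by the binomial distribution. No test was run, since each group has 1 library, and genes and peaks are not replicates. The named genes are the 10 strongest of each class by -log10 p-value, FASN and ACACA, and up to 6 members per class of each gene group. Other named genes were chosen after their values were seen, as was the limit of 15 tags. The members, lists and rules were chosen with earlier results of these data known. Python 3.11.15, numpy 2.4.6, pandas 2.3.3, scipy 1.17.1, pysam 0.24.0 and matplotlib 3.10.9 were used.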

Additional observations from a re-analysis of the deposited data

How the results depend on the processing

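Of 52 recalculations, 18 stayed within the interval of the reported value and 34 moved outside it. The cause of the moves was not tested. None turned a direction, but shares of matched peaks and of shared genes could not do so. Some of the rest had intervals that included no difference, such as the peak number ratio with a score above 60 (-0.09 to 0.20). The log2 ratio of peak numbers was 0.43 with fold enrichment above 5, 0.057 with a score above 60, 0.40 at promoters, 1.195 elsewhere and 0.82 for covered bases. The matched share of trametinib peaks was 15.4% with 50% reciprocal overlap, 19.3% with summits within 200 bp, 28.7% with fold above 5, 45.4% with score above 60, 18.8% at equal numbers, 20.1% without IgG overlap and 39.8% in the top 1000. For AMG510 these were 8.05%, 10.1%, 21.2%, 43.3%, 18.7%, 10.3% and 39.6%. The promoter share difference was -3.28 points at equal numbers, -6.38 with fold above 5, -1.62 with score above 60, -10.3 with a TSS distance of 500 bp and -2.90 in the top 1000. The E-box difference was -0.46 points at equal numbers, -0.77 outside promoters, -1.57 with a 50 bp window, -5.33 with CACGCG counted and -1.70 in the top 1000. Shared genes made up 43.0% of trametinib genes at equal numbers and 43.5% with fold above 5, and 46.9%, 36.8% and, at 500 bp, 39.2% of AMG510 genes. The median tag ratio stayed within its interval of -0.11 to 0 in every setting tried. That interval covers the spread over the 885 pairs, which are not replicates. Of 108 recounts of gene groups 15 moved by over 1.5 times, most of them with fold above 5. At that limit the genes in both lists fell from 1237 to 417 over all genes. They fell from 23 to 11 in splicing, 19 to 11 in translation, 24 to 13 in ribosome biogenesis and 7 to 4 in chaperones. For large and small ribosomal proteins they went from 36 to 33 and from 21 to 16. The top 1000, the IgG-free gene shares and the stronger pairs were chosen after seeing the data. No paired analysis was possible because no replicate numbers link the libraries. A median peak of 11 or 12 tags limits what a missing peak can show.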

Other observations

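The unmatched peaks outside promoters were spread over the chromosomes in the same way under both drugs. Per megabase they were densest on chromosome 5, with 3.99 under AMG510 and 2.04 under trametinib, where the IgG list had 1.38 peaks outside promoters. They were sparse on chromosome 4 (0.652 and 0.147, IgG 0.357) and on chromosome 15 (0.598 and 0.235, IgG 0.255). As a description over 23 chromosomes, which share the libraries and the genome of these cells, Pearson's r between the densities was 0.97 for AMG510 with trametinib, 0.95 for AMG510 with IgG and 0.92 for trametinib with IgG.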
